A study of Mus musculus with 6 samples.

Results

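To compare proliferation between CD34hi and CD34lo mammary fibroblasts, 36 genes of the cell cycle were followed through the bulk RNA-seq libraries of both populations. They are a list by function, 16 genes of S phase and its preparation and 20 genes of mitosis, and no threshold on a measured value decides which genes belong to it. All 36 were among the 27179 genes of the count table and all passed the filter on low counts that left 15219 genes for testing. The libraries came from FVB/N females (FVB/NJ in the study's methods) in puberty, at 6 weeks of age. The labels name no treatment, transgene or deletion in either group. Fibroblasts were sorted from the mammary glands of 3 pools of 2 mice each as cells negative for CD24 and for the lineage markers CD31, CD45 and TER-119 and positive for Pdgfra, and were then divided by CD34. Each pool gave 1 CD34hi and 1 CD34lo library, so that there were 3 libraries of each population, and a library averages over the cells of its 2 mice.

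A dividing cell copies its DNA in S phase and separates the copies in mitosis. S phase genes are switched on by E2F transcription factors once G1 cyclin-dependent kinases have inactivated the retinoblastoma family of repressors. Mitotic genes follow later, through B-Myb and FoxM1 on the MuvB complex at promoter elements called CHR. In puberty the mammary ducts grow into the fat pad, and the stroma around them grows as well. Transcripts of mitosis come mainly from the cells in G2 and M, so their level in a bulk library depends on how many cells are cycling and on how much RNA each of them holds, which cannot be told apart here.

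Values are CPM, reads of a gene scaled to a common library size by TMM, and log2 fold changes are CD34hi against CD34lo, so that a negative value means less in CD34hi. Genes are called at an adjusted p under 0.05 by the quasi-likelihood test of edgeR, adjusted for all genes tested by Benjamini-Hochberg. Libraries held 28764779 to 52402410 counted reads, and 3 reads corresponded to between 0.0553 and 0.108 CPM. Cd34 itself was at 2490, 2639 and 2584 CPM in the CD34hi libraries of pools 1, 2 and 3 and at 476, 793 and 632 CPM in the CD34lo libraries (log2 fold change 2.02 ± 0.20 SE, edgeR adjusted p = 9.66e-05). The defining fibroblast genes were high in all libraries, with Pdgfra between 637 and 922 CPM in CD34hi and between 1036 and 1416 CPM in CD34lo. Of the 5 fibroblast markers 4 were nevertheless lower in CD34hi by edgeR, namely Pdgfra (-0.74), Col1a1 (-0.87), Col1a2 (-0.69) and Lum (-1.28). Of all genes tested, 18.7% were called lower and 16.9% higher in CD34hi, and the median log2 fold change was -0.0064.

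One library stood apart in the mitotic genes. The CD34hi library of pool 3 was the highest of the CD34hi libraries for 18 of the 20 mitotic members (90.0%) and for 41.5% of all genes tested. For the S phase members it was the highest in 4 of 16 (25.0%). Among the CD34lo libraries, that of pool 1 was the highest for 13 of the 20 mitotic and 13 of the 16 S phase members (65.0% and 81.2%, and 32.9% of all genes). Counts of the members called are also given without each library in turn.

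The promoters were searched for the elements named above, and 4 that hold a CHR, an E2F site or both are shown as examples of mitotic and S phase members. RefSeq promoter windows (GRCm38.p6, 250 bases before to 50 bases after the start) were found for 29 of the 36 members, 13 of S phase and 16 of mitosis. The sequences below are the 250 bases before the start, 5′ to 3′ on the gene's own strand. Capitals mark the E2F sites (TTTCCCGC, TTTGGCGC, TTTGCCGC or TTTCGCGC), the CHR (TTTGAA) and the CCAAT box (CCAAT), each on either strand, so that ATTGG is a CCAAT box and TTCAAA a CHR read from the other strand. Cdk1 and Mki67 are mitotic members and Uhrf1 and Mcm6 S phase members. For Uhrf1 the window of its second listed start is shown.
Cdk1 (chr10:69352913-69353162, minus strand): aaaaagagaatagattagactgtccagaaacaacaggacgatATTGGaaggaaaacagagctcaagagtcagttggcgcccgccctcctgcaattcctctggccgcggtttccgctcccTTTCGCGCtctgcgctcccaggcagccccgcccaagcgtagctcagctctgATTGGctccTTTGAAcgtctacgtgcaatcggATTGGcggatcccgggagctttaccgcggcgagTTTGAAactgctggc
Mki67 (chr7:135716380-135716629, minus strand): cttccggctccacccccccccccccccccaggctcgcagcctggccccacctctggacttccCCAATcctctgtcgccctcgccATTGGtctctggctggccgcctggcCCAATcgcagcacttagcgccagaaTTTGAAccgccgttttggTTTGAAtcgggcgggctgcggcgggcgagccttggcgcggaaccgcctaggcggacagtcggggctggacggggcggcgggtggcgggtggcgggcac
Uhrf1 (chr17:56304063-56304312, plus strand): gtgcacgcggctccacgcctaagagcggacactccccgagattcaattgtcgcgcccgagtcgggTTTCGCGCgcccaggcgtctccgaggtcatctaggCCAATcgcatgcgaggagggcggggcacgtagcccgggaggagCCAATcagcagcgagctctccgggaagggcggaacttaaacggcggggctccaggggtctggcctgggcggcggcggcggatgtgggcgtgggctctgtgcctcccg
Mcm6 (chr1:128359706-128359955, minus strand): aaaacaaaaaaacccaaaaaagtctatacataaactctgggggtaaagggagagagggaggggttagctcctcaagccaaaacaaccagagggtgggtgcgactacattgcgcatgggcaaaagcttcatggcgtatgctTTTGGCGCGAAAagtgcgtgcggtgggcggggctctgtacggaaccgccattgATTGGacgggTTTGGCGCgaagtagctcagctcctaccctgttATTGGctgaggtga

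The Cdk1 window holds 1 E2F site, 2 CHR and 3 CCAAT boxes, and that of Mki67 holds 2 CHR and 3 CCAAT boxes and none of the E2F letters. Uhrf1 has 1 E2F site and 2 CCAAT boxes, and Mcm6 has 3 E2F sites, of which 2 overlap on opposite strands, and 2 CCAAT boxes. Over the whole windows of 300 bases, an E2F site was present for 7 of 13 S phase members (53.8%), 1 of 16 mitotic members (6.25%) and 2.26% of all 32851 promoters of the table. A CHR together with a CCAAT box was present for 1 of 13 S phase members (7.69%), 11 of 16 mitotic members (68.8%) and 6.95% of all promoters. The windows of Ccne1, E2f1, Tyms, Birc5 and Nusap1 held none of the letters searched. The E2f1 window (chr2:154569377-154569676, minus strand) lies inside the counted span of the gene, which ends at 154569852. The bases before that outer end were not searched, so nothing is shown for E2f1 there. The Cdc6 window (chr11:98907901-98908200, plus strand), which holds an E2F site, likewise lies inside its span, which begins at 98907889. A gene with more than 1 listed start was counted as having an element when any of its windows held it. A match of letters is a description of the window and not evidence of binding.

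The 36 genes were expressed at low to moderate levels. Per kilobase of transcript, the mean S phase member levels in CD34hi ran from 0.424 RPKM for Cdc6 to 36.8 RPKM for Pcna, and the mean mitotic levels from 0.121 RPKM for Bub1 to 1.70 RPKM for Ccnb2. In CD34lo they ran from 0.379 RPKM (Ccne2) to 56.6 RPKM (Pcna) and from 0.230 RPKM (Cenpf) to 2.61 RPKM (Kif11). On the CPM scale the median member was at 3.98 CPM for S phase and 1.79 CPM for mitosis, and 5 mitotic members averaged under 1 CPM. The plot of all members by library shows these levels side by side.

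**Figure D1:**
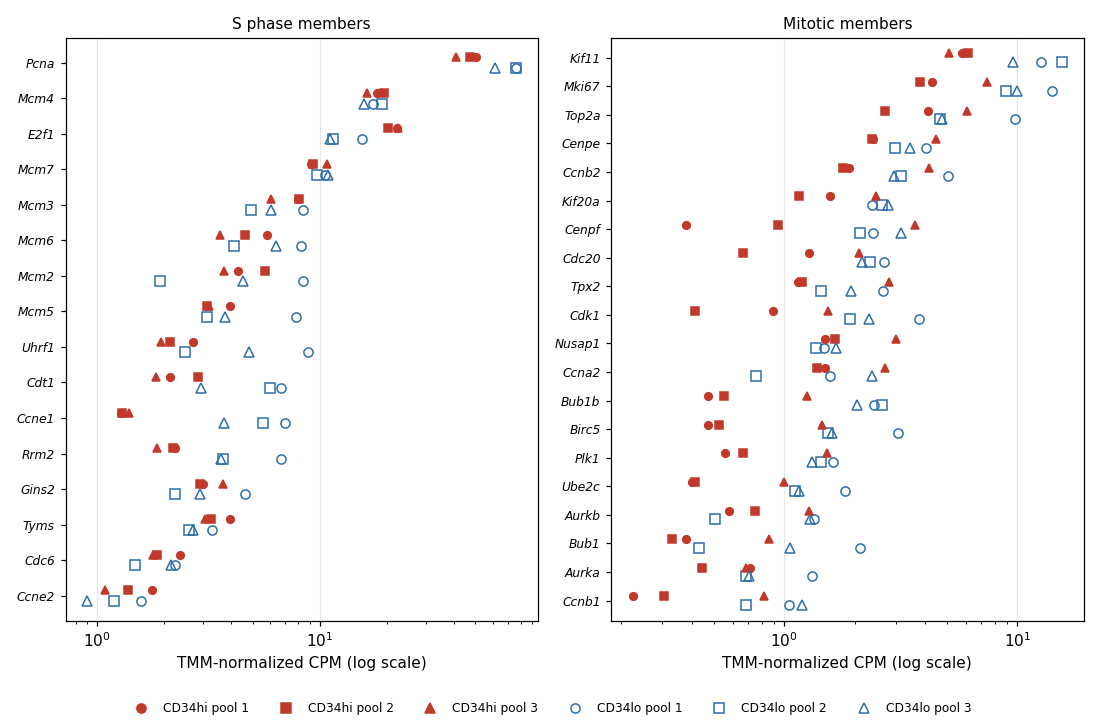
TMM-normalized CPM (log axis) of the S phase members (left) and mitotic members (right) in each of the 6 libraries. Filled red symbols are CD34hi and open blue symbols CD34lo, with one shape per pool. For 18 of the 20 mitotic members the CD34hi library of pool 3 lies to the right of the other CD34hi libraries.

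5 of the 16 S phase members fell in CD34hi (31.2%, with 18.7% of all genes called lower), 1 rose (6.25%, with 16.9% of all genes called higher) and 10 were not called. The ones that fell were Ccne1, Pcna, Rrm2, Cdt1 and Uhrf1, and the one that rose was E2f1. The median log2 fold change of the list was -0.12, and 10 of the 16 values were below 0. In 4 members every CD34hi library was below every CD34lo library (25.3% of all genes did the same).

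At the entry into S phase, cyclin E activates Cdk2, and E2F factors, E2F1 among them, switch on the genes of cyclin E and of replication. Ccne1, which encodes cyclin E1 (gene 12447, chr7:38097984-38107490 in GRCm38), was at 1.27, 1.30 and 1.39 CPM in the CD34hi libraries and at 7.01, 5.57 and 3.70 CPM in the CD34lo libraries of pools 1, 2 and 3. All CD34hi values lay in a narrow band below the lowest CD34lo value, and pool 3 had the smallest distance. It showed the largest decrease of the 36 genes, with a log2 fold change of -2.04 ± 0.27 SE (edgeR adjusted p = 0.000523). Ccne2, encoding cyclin E2, went the other way by a small amount in each pool, with CD34hi at 1.77, 1.38 and 1.08 CPM and CD34lo at 1.57, 1.19 and 0.90 CPM. The groups overlapped and the gene was not called (0.20 ± 0.33 SE, edgeR adjusted p = 0.685). Ccne2 overlaps Ints8 on the other strand, and the library kit does not mark strand, so its reads cannot be told from those of Ints8 in the overlap.

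E2f1 (gene 13555, chr2:154559639-154569852), an activating E2F factor, was at 22.2, 20.2 and 22.5 CPM in CD34hi and at 15.5, 11.4 and 11.2 CPM in CD34lo. The groups did not overlap, and CD34hi was higher in all 3 pools. Its log2 fold change was 0.76 ± 0.16 SE (edgeR adjusted p = 0.00524). E2f1 and Ccne1 thus moved in opposite directions in the same libraries.

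The licensing genes load the replicative helicase onto origins. Mcm2 to Mcm7 encode the 6 subunits of that helicase. Their log2 fold changes lay between -0.53 (Mcm5) and 0.19 (Mcm3), with a median of -0.12. By edgeR, by limma-voom or by DESeq2 0 of the 6 were called, where edgeR called 35.6% of all genes in either direction. An unadjusted p under 0.05 in edgeR was seen for 0 of the 6. Mcm4 was nearly level, at 18.0, 19.5 and 16.3 CPM in CD34hi and 17.4, 19.1 and 15.8 CPM in CD34lo, with a log2 fold change of 0.04 ± 0.13 SE. Mcm7 gave -0.09 ± 0.14 SE and was slightly lower in CD34hi in each pool, at -0.22, -0.06 and -0.02 on the log2 scale. Mcm2 varied most between pools, at 4.29, 5.66 and 3.73 CPM in CD34hi and 8.45, 1.91 and 4.50 CPM in CD34lo. The pool 2 difference was thus opposite to the other two, and the estimate of -0.14 had an SE of 0.45, too wide to show a moderate change. Mcm5 and Mcm6 were highest in the CD34lo library of pool 1, at 7.78 and 8.23 CPM, and between 3.12 and 6.33 CPM in the other 5 libraries.

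The helicase is loaded by Cdc6 and Cdt1. Cdt1 (gene 67177, chr8:122568015-122573130) was at 2.12, 2.84 and 1.83 CPM in CD34hi and 6.68, 6.01 and 2.93 CPM in CD34lo, without overlap. Its log2 fold change was -1.21 ± 0.33 SE (edgeR adjusted p = 0.0203). This call was lost, with adjusted p up to 0.0813 in edgeR, on leaving out the CD34lo library of pool 1 or 2 or the CD34hi library of pool 1 or 3. Cdc6 was at 2.35, 1.85 and 1.79 CPM in CD34hi and 2.23, 1.47 and 2.15 CPM in CD34lo, and the estimate was 0.02 ± 0.27 SE. Gins2, a subunit of the GINS complex that joins the active helicase, gave -0.04 ± 0.29 SE, and it overlaps Gse1 on the other strand.

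Among the genes of DNA synthesis, Pcna and Rrm2 were lower. Pcna (gene 18538, chr2:132249286-132253180) encodes the sliding clamp of the replication fork and was by far the most abundant member. CD34hi libraries held 50.4, 47.6 and 41.1 CPM and CD34lo libraries 75.9, 76.5 and 61.3 CPM. The groups were apart, and the difference was alike in the pools, at -0.59, -0.68 and -0.58 on the log2 scale. The fitted change was -0.62 ± 0.13 SE (edgeR adjusted p = 0.0064). Rrm2 (gene 20135, chr12:24708254-24714146), the regulated subunit of ribonucleotide reductase, was at 2.24, 2.18 and 1.85 CPM in CD34hi and 6.68, 3.67 and 3.60 CPM in CD34lo, again without overlap. Its log2 fold change was -1.16 ± 0.29 SE (edgeR adjusted p = 0.0125), and it was -0.77 without the CD34lo library of pool 1 and still called (0.0404).

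Tyms, encoding thymidylate synthase, was at 3.94, 3.26 and 3.04 CPM in CD34hi and 3.26, 2.59 and 2.70 CPM in CD34lo. CD34hi was above CD34lo within each pool, but the groups overlapped and the gene was not called (0.25 ± 0.21 SE). A pseudogene, Tyms-ps, had 207 counts over the 6 libraries against 765 for Tyms, so its value is uncertain. Uhrf1 (gene 18140, chr17:56303337-56323486) recruits the maintenance methyltransferase to newly copied DNA. It was at 2.71, 2.12 and 1.94 CPM in CD34hi and 8.82, 2.48 and 4.79 CPM in CD34lo, and the groups overlapped. The log2 fold change was -1.26 ± 0.41 SE (edgeR adjusted p = 0.0417). The call depended on several libraries: it was kept without the CD34lo library of pool 2, and lost without any one of the other 5, with -0.67 and an adjusted p of 0.174 in edgeR without the CD34lo library of pool 1. It was also lost with limma-voom (adjusted p = 0.0656).

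**Figure D2:**
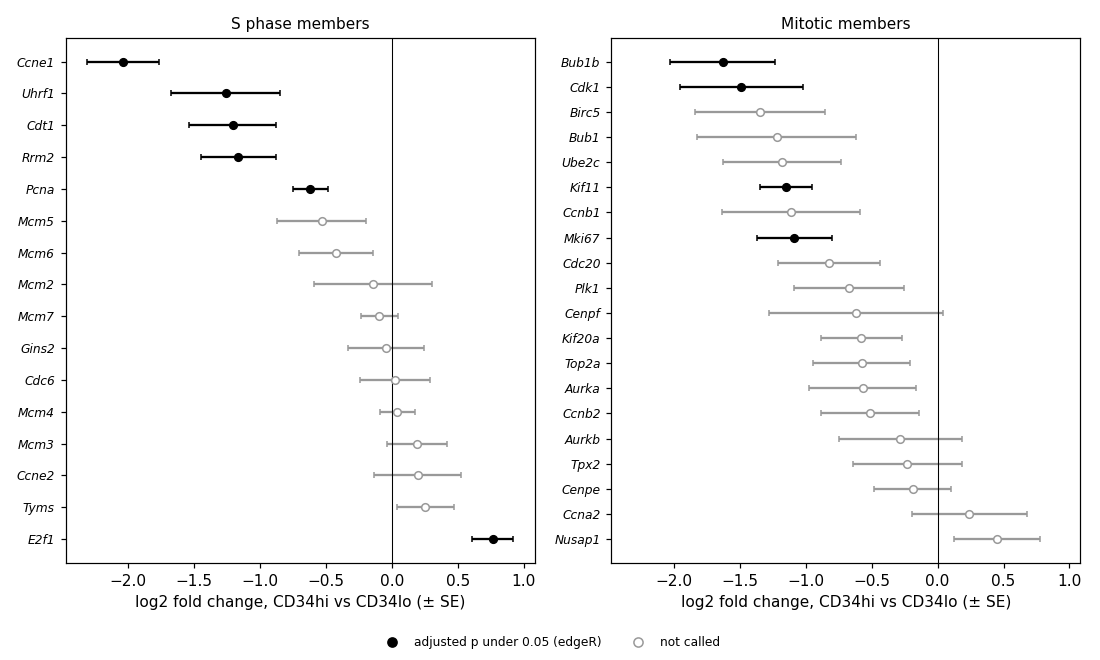
Log2 fold change of CD34hi against CD34lo for the S phase members (left) and mitotic members (right), each list in order of its values; points are estimates from edgeR and bars ± 1 SE. Filled black points have an adjusted p under 0.05, which holds for 6 S phase and 4 mitotic members.

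Of the 20 mitotic members, 4 fell in CD34hi (20%, with 18.7% of all genes called lower) and 16 were not called. They were Bub1b, Cdk1, Kif11 and Mki67. With the pools as a block 5 fell, with 20.9% of all genes lower and 19.6% higher, Birc5 being the additional one. By limma-voom and by DESeq2 6 fell, with Birc5 and Ube2c added to the 4 (18.8% and 20% of all genes lower). Against this the estimates leaned to one side: 18 of 20 were below 0 (90.0%) and their median was -0.65, where that of all genes was -0.0064. In 7 members every CD34hi library was below every CD34lo library, which held for 25.3% of all genes. No mitotic member rose by edgeR, limma-voom or DESeq2, and 0 had an unadjusted p under 0.05 on that side.

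Mki67 (gene 17345, chr7:135689788-135716379) encodes Ki-67, the coat protein of mitotic chromosomes that is used as a marker of cycling cells. It was at 4.29, 3.81 and 7.43 CPM in CD34hi and 14.1, 8.95 and 9.93 CPM in CD34lo. All CD34hi libraries were below all CD34lo libraries, with pool 3 the closest. The log2 fold change was -1.09 ± 0.28 SE (edgeR adjusted p = 0.0165). It was no longer called without the CD34lo library of pool 1 or the CD34hi library of pool 1 or 2, with adjusted p up to 0.0679 in edgeR, and it was -1.44 (0.00292) without the CD34hi library of pool 3. Top2a, the topoisomerase that untangles sister chromatids, was at 4.14, 2.70 and 6.06 CPM in CD34hi and 9.76, 4.64 and 4.76 CPM in CD34lo. Here the pool 3 order was turned round, the groups overlapped, and the gene was not called (-0.58 ± 0.37 SE, edgeR adjusted p = 0.259).

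The kinase that drives entry into mitosis is Cdk1 (gene 12534, chr10:69336635-69352912) with B-type cyclins. Cdk1 was at 0.894, 0.414 and 1.54 CPM in CD34hi and 3.80, 1.91 and 2.31 CPM in CD34lo. These values rested on 40, 15 and 70 reads and on 206, 53 and 72 reads. The groups did not overlap, and the log2 fold change was -1.49 ± 0.47 SE (edgeR adjusted p = 0.0356). Without the CD34lo library of pool 1 or 3, or the CD34hi library of pool 1 or 2, it was not called, with adjusted p up to 0.139 in edgeR. Ccnb1, encoding cyclin B1, was at 0.224, 0.304 and 0.816 CPM in CD34hi and 1.05, 0.683 and 1.19 CPM in CD34lo, from 10 to 57 reads a library, and gave -1.11 ± 0.53 SE (edgeR adjusted p = 0.134). The CD34hi library of pool 3 lay above the CD34lo library of pool 2, and 139 reads of the pseudogene Ccnb1-ps against 171 of Ccnb1 make it uncertain.

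Ccnb2, encoding cyclin B2, was lower in CD34hi in pools 1 and 2 and higher in pool 3, with -0.51 ± 0.37 SE. Ccna2, encoding cyclin A2, which acts in both S phase and G2, was at 1.50, 1.38 and 2.69 CPM in CD34hi and 1.57, 0.755 and 2.38 CPM in CD34lo, and was not called (0.24 ± 0.44 SE). It was one of only 2 mitotic members with an estimate above 0, the other being Nusap1, a spindle-associated protein. Nusap1 was at 1.50, 1.66 and 3.00 CPM in CD34hi and 1.48, 1.37 and 1.67 CPM in CD34lo, so that it was higher in every pool but mostly in pool 3 (0.45 ± 0.33 SE). Both overlap a gene on the other strand, Exosc9 and Oip5.

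The spindle checkpoint delays anaphase until all chromosomes are attached. Bub1b (gene 12236, chr2:118598211-118641592), which encodes the checkpoint protein BubR1, was at 0.470, 0.552 and 1.26 CPM in CD34hi and 2.43, 2.63 and 2.06 CPM in CD34lo. Even the highest CD34hi library, that of pool 3, was below the lowest CD34lo library. The log2 fold change of -1.63 ± 0.40 SE (edgeR adjusted p = 0.0121) was the largest decrease among the mitotic members and remained called in all 13 alternatives, with adjusted p up to 0.0497. The checkpoint kinase Bub1 was at 0.380, 0.331 and 0.860 CPM in CD34hi and 2.12, 0.432 and 1.06 CPM in CD34lo. It was not called (-1.22 ± 0.61 SE, edgeR adjusted p = 0.152). Cdc20, the activator of the anaphase-promoting complex that the checkpoint holds back, was at 1.27, 0.662 and 2.10 CPM in CD34hi and 2.67, 2.34 and 2.15 CPM in CD34lo. The groups were just apart, by 2.10 against 2.15 CPM, and it was not called (-0.82 ± 0.39 SE, edgeR adjusted p = 0.134). Its span meets that of Elovl1 on the other strand. Ube2c, the ubiquitin-conjugating enzyme of the same complex, was also apart, at 0.402 to 0.992 CPM in CD34hi and 1.11 to 1.83 CPM in CD34lo (-1.18 ± 0.45 SE, edgeR adjusted p = 0.0695). It was called by limma-voom (0.044), DESeq2 (0.0479) and limma-voom with the block (0.0463), and not by edgeR with the block (0.0566).

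The chromosomal passenger complex corrects faulty attachments through the kinase Aurora B and its partner survivin. Birc5, encoding survivin, was at 0.470, 0.524 and 1.46 CPM in CD34hi and 3.06, 1.55 and 1.61 CPM in CD34lo, without overlap. Its log2 fold change of -1.35 ± 0.49 SE missed the threshold (edgeR adjusted p = 0.0637) and passed it with the pools as a block (-1.43, adjusted p = 0.0387). The difference within pools went from -2.58 in pool 1 to -0.14 in pool 3 on the log2 scale. Aurkb, the kinase, was at 0.581, 0.745 and 1.28 CPM in CD34hi and 1.35, 0.503 and 1.29 CPM in CD34lo, and its estimate was -0.28 ± 0.47 SE. Aurka and Plk1, kinases of the centrosome and spindle, gave -0.57 ± 0.41 SE and -0.67 ± 0.41 SE and were not called. Tpx2, which activates Aurora A on the spindle, gave -0.23 ± 0.41 SE.

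Motor and kinetochore genes differed in how closely the libraries followed one another. Kif11 (gene 16551, chr19:37376403-37421859), the kinesin that pushes the spindle poles apart, was at 5.77, 6.15 and 5.07 CPM in CD34hi and 12.6, 15.5 and 9.55 CPM in CD34lo. The groups were far apart, and Kif11 was one of the 2 mitotic members in which the CD34hi library of pool 3 was not the highest of its group, the other being Aurka. Its log2 fold change was -1.15 ± 0.20 SE (edgeR adjusted p = 0.00221), the lowest adjusted p among the mitotic members. Cenpf, a kinetochore protein, was at 0.380, 0.938 and 3.64 CPM in CD34hi and 2.40, 2.12 and 3.15 CPM in CD34lo. The pool 3 value of CD34hi was the highest of all 6 libraries, and the gene was not called (-0.62 ± 0.66 SE, edgeR adjusted p = 0.506). Cenpe, the kinetochore motor, gave -0.19 ± 0.29 SE. Kif20a, a kinesin of cell division, was lower in CD34hi in all pools but not called (-0.58 ± 0.31 SE), and it overlaps Brd8 and Cdc23 on the other strand.

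The pools were then compared directly, since each gave both populations. The summed level of the 20 mitotic members was 30.5, 28.2 and 54.3 CPM in the CD34hi libraries of pools 1, 2 and 3 and 77.3, 56.9 and 57.4 CPM in the CD34lo libraries. The ratio of CD34hi to CD34lo was therefore 0.395, 0.496 and 0.946, near level in pool 3. The median difference of the members was -1.31, -1.06 and -0.04 on the log2 scale, and 19, 17 and 12 of the 20 were lower in CD34hi. In all 3 pools 11 members were lower (55.0%, with 32.9% of all genes), and 1, Nusap1, was higher.

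The S phase members did not follow this pattern. Their summed level was 141, 136 and 124 CPM in CD34hi and 193, 156 and 143 CPM in CD34lo, with ratios of 0.731, 0.871 and 0.863. The median differences were -0.55, 0.10 and -0.25, and 11, 7 and 10 of the 16 were lower in CD34hi in pools 1, 2 and 3. In all 3 pools 7 were lower (43.8%, with 32.9% of all genes) and 4 higher (32.7% of all genes). Pcna alone gave 50.4 of the 141 CPM in the CD34hi library of pool 1. Whether the pools differ in the contrast of the populations was not tested, since each pool holds 1 library of each.

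**Figure D3:**
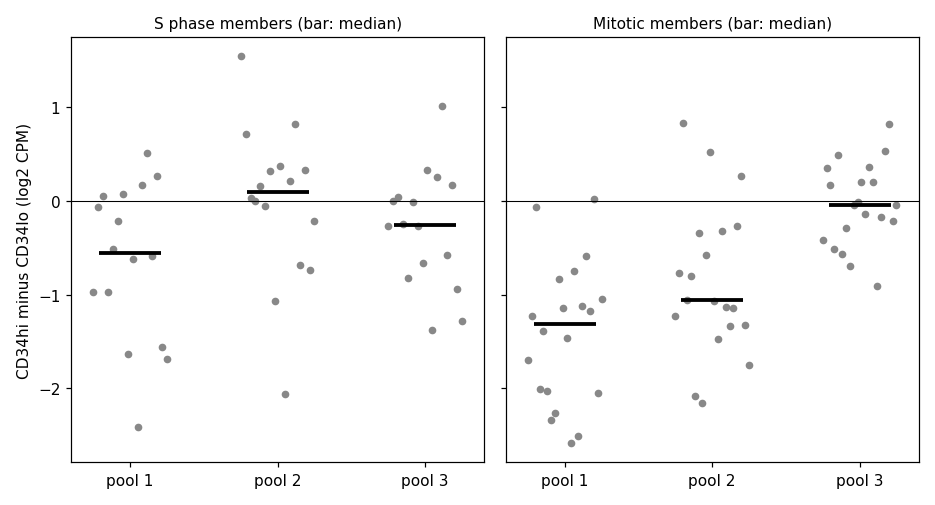
Difference between the CD34hi and the CD34lo library of the same pool in log2 CPM (prior count 2), for the S phase members (left) and the mitotic members (right). Each point is a gene, spread sideways for visibility, and the bar is the median: -1.31, -1.06 and -0.04 for mitosis in pools 1, 2 and 3 and -0.55, 0.10 and -0.25 for S phase.

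Each library was then left out in turn. Without the CD34hi library of pool 3 the 4 mitotic calls were kept and 8 were gained, so that 12 of the 20 mitotic members were called lower (edgeR, with 18.0% of all genes called lower): Birc5, Bub1b, Ccnb1, Ccnb2, Cdc20, Cdk1, Cenpf, Kif11, Kif20a, Mki67, Plk1 and Ube2c. Cenpf moved most, from -0.62 to -1.96, with an adjusted p of 0.0121. Without any one of the other 5 libraries between 2 and 5 were called, with 15.9%, 17.5% and 16.2% of all genes lower without the CD34lo library of pool 1, 2 or 3 and 14.1% and 13.6% without the CD34hi library of pool 1 or 2. Bub1b and Kif11 were called in every case, and they were the only 2 without the CD34lo library of pool 1 or the CD34hi library of pool 1 or 2. The S phase count was less affected, with 3 members lower and E2f1 higher without the same library and 3 or 4 lower and E2f1 higher without any other. Ccne1, Pcna, Rrm2 and E2f1 were called each time. No library was dropped from the values given elsewhere.

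**Figure D4:**
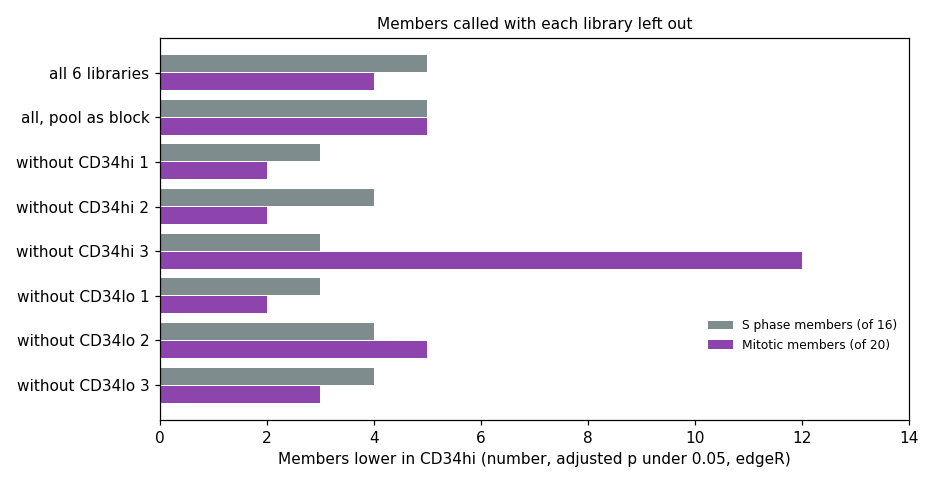
Number of S phase members (of 16) and mitotic members (of 20) called lower in CD34hi by edgeR with all 6 libraries, with all 6 and the pool as a block, and on leaving out each library in turn; bar length is the number of genes. The mitotic count is 4 with all libraries, 12 without the CD34hi library of pool 3 and 2 to 5 without any other.

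Other genes of the same phases were examined from lists drawn up by function. Of 40 other S phase genes, all of them tested, 5 fell (12.5%, with 18.7% of all genes) and 1 rose (2.5%, with 16.9% of all genes), both below the shares over all genes. With the pools as a block 6 fell and 2 rose, where 20.9% and 19.6% of all genes did. Without the CD34lo library of pool 1, 3 fell and 2 rose (15.9% and 14.6% of all genes). Without the CD34hi library of pool 2, 3 fell and 1 rose (13.6% and 11.8%). Without the CD34hi library of pool 1, 5 fell and 0 rose (14.1% and 13.7%). Without any one of the others the counts were 5 and 1. Their median log2 fold change was -0.12. The ones named by the largest change were Clspn (-1.79, edgeR adjusted p = 0.00402), an adaptor of the replication checkpoint, and Tk1 (-0.95, 0.0169), thymidine kinase. Tk1 was not called without the CD34lo library of pool 1 or the CD34hi library of pool 2 (adjusted p up to 0.0743). Mcm10, which acts as the helicase starts, rose. It was at 2.97, 2.12 and 2.58 CPM in CD34hi and 1.46, 1.29 and 0.772 CPM in CD34lo, without overlap, and its log2 fold change was 1.11 (edgeR adjusted p = 0.0211, and 0.0767 without the CD34hi library of pool 1).

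Of 51 other mitotic genes tested, 5 fell (9.80%, with 18.7% of all genes) and 2 rose (3.92%, with 16.9% of all genes). Their median was -0.65, as for the members, and 43 of the 51 were below 0. With the pools as a block 14 fell (20.9% of all genes did) and 2 rose, and without the CD34hi library of pool 3 the numbers were 15 (18.0% of all genes) and 1. Without the CD34hi library of pool 2 they were 2 (13.6%) and 1, and without that of pool 1 they were 4 (14.1%) and 1. Without the CD34lo library of pool 1, 2 or 3, 5, 6 and 5 fell (15.9%, 17.5% and 16.2%) and 2, 1 and 1 rose. The CD34hi library of pool 3 was the highest of its group for 42 of the 51 (82.4%). Kif15 (-1.16, edgeR adjusted p = 0.0171), a second motor of spindle assembly, Ect2 (-1.05, 0.0129), the exchange factor of cytokinesis, and Hmgb2 (-0.83, 0.00384), a chromatin protein of cycling cells, fell. Kif15 was not called without the CD34lo library of pool 1 or the CD34hi library of pool 1 or 2 (adjusted p up to 0.0805 in edgeR), and Ect2 was not without the CD34hi library of pool 2 (0.0559). Espl1, encoding separase, rose, at 4.25, 3.20 and 3.70 CPM in CD34hi and 1.83, 0.683 and 1.54 CPM in CD34lo (1.43, edgeR adjusted p = 0.0111). Cdca2 rose as well (1.01, 0.0477) and was called in 7 of 13 alternatives. It was lost with upper-quartile scaling and without any one CD34hi library or the CD34lo library of pool 2 or 3 (adjusted p up to 0.117 in edgeR).

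The study described a cycling fibroblast cluster in its single-cell atlas of other mice, of the C57BL/6 strain. Of 30 marker genes of that cluster 28 were tested here, 12 of them members and 13 in the list of other mitotic genes. The estimate was below 0 for 27 of the 28 and the median was -0.76. By the test 3 fell (10.7%, with 18.7% of all genes), or 9 with the pools as a block (20.9% of all genes), and none rose by edgeR, limma-voom or DESeq2 (0 at an unadjusted p under 0.05 too). The CD34hi library of pool 3 was the highest of its group for 25 of them. Without that library 12 fell (18.0% of all genes did), and 4 without the CD34lo library of pool 2 (17.5%). Only 1 fell without the CD34hi library of pool 1 (14.1%) or the CD34lo library of pool 3 (16.2%). By edgeR 0 fell without the CD34lo library of pool 1 (15.9%) or the CD34hi library of pool 2 (13.6%), with 1 and 3 at an unadjusted p under 0.05. With all libraries 5 fell by limma-voom and 6 by DESeq2, where 18.8% and 20% of all genes did. Their summed level was 48.0, 42.7 and 78.4 CPM in CD34hi and 105, 69.0 and 89.0 CPM in CD34lo.

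The regulators upstream of these genes changed one by one. Of 19 genes of the E2F family and the MuvB, B-Myb and FoxM1 complexes, 2 fell (10.5%, with 18.7% of all genes) and 4 rose (21.1%, with 16.9% of all genes), and the median was 0.03. With the pools as a block E2f4, a repressor that works with the pocket proteins, rose as well (0.43, edgeR adjusted p = 0.0186). E2f7, a repressor of E2F targets, was at 23.1, 16.9 and 25.0 CPM in CD34hi and 2.71, 1.80 and 1.13 CPM in CD34lo. All CD34hi values were many times the CD34lo values, and the log2 fold change was 3.49 ± 0.30 SE (edgeR adjusted p = 5.01e-05). E2f8, the related repressor, went the other way (edgeR adjusted p = 0.0388). It had 4, 3 and 17 reads in CD34hi and 106, 12 and 17 reads in CD34lo, and the call was lost without the CD34lo library of pool 1 or the CD34hi library of pool 1 or 2 (adjusted p up to 0.202).

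Foxm1, the activator of late mitotic genes, was at 4.49, 4.53 and 4.39 CPM in CD34hi and 9.85, 6.40 and 5.98 CPM in CD34lo. Unlike 18 of the 20 mitotic members, it was not highest of its group in the CD34hi library of pool 3. The log2 fold change was -0.74 (edgeR adjusted p = 0.0287, and up to 0.0953 without the CD34lo library of pool 1 or any one CD34hi library). Mybl2, encoding B-Myb, was near or under 1 CPM in most libraries and not called (-0.22). Rbl1, encoding the retinoblastoma relative p107, Tfdp1, the dimer partner of the E2Fs, and E2f6, a repressor of the family, rose by 0.56, 0.50 and 0.54 (edgeR adjusted p = 0.0219, 0.0202 and 0.048). Rbl1 was not called without the CD34lo or the CD34hi library of pool 2, Tfdp1 without the CD34hi library of pool 1 or 2 or the CD34lo library of pool 3, and E2f6 was called in only 7 of 13 alternatives. Rb1 itself was not called (-0.14).

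**Figure D5:**
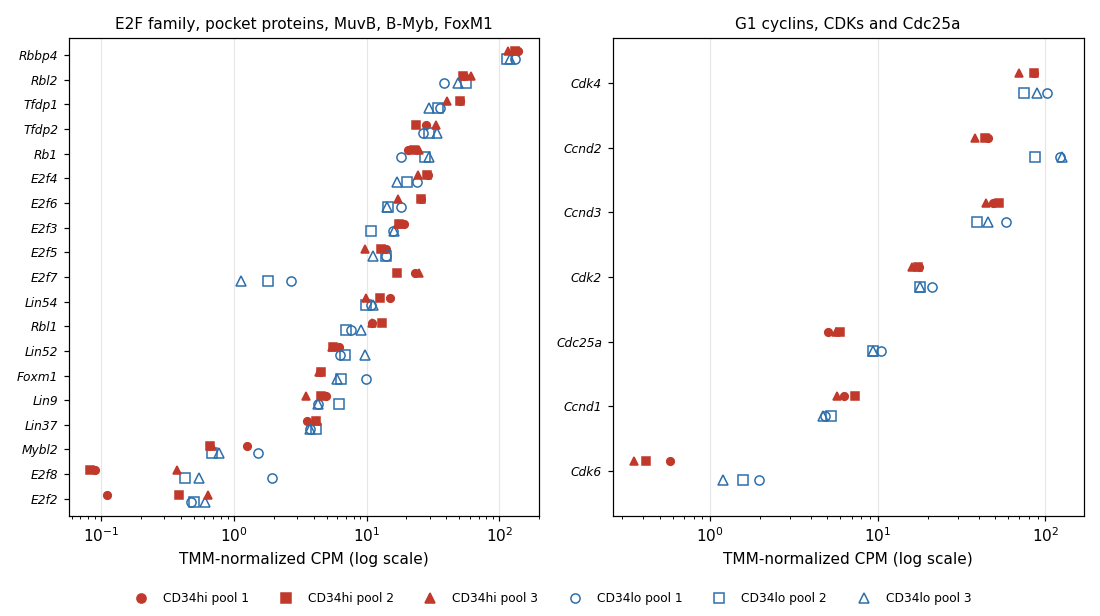
TMM-normalized CPM (log axis) of 19 genes of the E2F family and the complexes that act with it (left) and of 7 G1 cyclins, kinases and Cdc25a (right) in each library; filled red symbols are CD34hi, open blue symbols CD34lo, and shapes are pools. E2f7 lies between 16.9 and 25.0 CPM in CD34hi and between 1.13 and 2.71 CPM in CD34lo.

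In G1, D-type cyclins with Cdk4 and Cdk6 start the inactivation of Rb, and Cdc25a removes the inhibitory phosphate from Cdk2. Of 7 such genes 3 fell (42.9%, with 18.7% of all genes), and none rose by edgeR, limma-voom or DESeq2 (0 at an unadjusted p under 0.05). Ccnd2 was at 45.7, 43.9 and 38 CPM in CD34hi and 123, 86.8 and 126 CPM in CD34lo, with the groups far apart (-1.40, edgeR adjusted p = 0.000245). Cdk6 was at 0.581, 0.414 and 0.353 CPM in CD34hi and 1.97, 1.58 and 1.19 CPM in CD34lo (-1.81, edgeR adjusted p = 0.00467). Cdc25a fell by 0.81 (edgeR adjusted p = 0.00308). Ccnd1 was higher in CD34hi in each pool, with 6.33, 7.37 and 5.71 CPM against 4.87, 5.29 and 4.73 CPM, and was not called (0.38, edgeR adjusted p = 0.116).

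Of the 7 CDK inhibitor genes, 4 fell (57.1%, with 18.7% of all genes): Cdkn2a, Cdkn2b, Cdkn2c and Cdkn1c. Cdkn2a had 3, 1 and 3 reads in CD34hi and 80, 32 and 26 reads in CD34lo in pools 1, 2 and 3. Its log2 fold change was -4.33 (edgeR adjusted p = 0.000265), and it was called in all 13 alternatives. With so few reads in CD34hi the size of this change is uncertain. Cdkn2b was at 0.581, 0.386 and 0.640 CPM in CD34hi and 2.78, 4.86 and 5.50 CPM in CD34lo (-3.00, edgeR adjusted p = 0.000244). Cdkn2c fell by 1.05 (edgeR adjusted p = 0.0106). Cdkn1c fell by 0.72 (edgeR adjusted p = 0.0314) and was called in 8 of 13 alternatives. It was lost without any one CD34hi library or the CD34lo library of pool 1 or 3 (adjusted p up to 0.101 in edgeR). Cdkn1a, encoding p21, was not called (0.45, edgeR adjusted p = 0.101) and rose with the pools as a block (adjusted p = 0.0234). Cdkn2d, the remaining gene of the Ink4 family, was not called (-0.35, edgeR adjusted p = 0.172).

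Other cell types could carry cycling cells, so their markers were read in the same libraries. For the calls below, 18.7% of all genes were lower and 16.9% higher in CD34hi by edgeR. The sort removed cells with CD31, CD45 or TER-119, and CD24 was used against epithelium. For the 6 epithelial markers, 0 were called by edgeR, limma-voom or DESeq2, where edgeR called 35.6% of all genes in either direction. In edgeR 0 of the 6 had an unadjusted p under 0.05. Their sums were 39.7, 34.7 and 32.9 CPM in the CD34hi libraries of pools 1, 2 and 3 and 28.3 to 39.1 CPM in CD34lo. Krt5 was highest in the CD34hi library of pool 3, at 2.69 CPM, with 0.304 to 1.09 CPM elsewhere. Among the CD34hi libraries, Krt14 was also highest in pool 3 (1.50 CPM). Epcam, Krt8 and Krt18 were lowest there (5.05, 13.7 and 7.70 CPM), and Cdh1 lay between. Of 4 endothelial markers 2 fell (Pecam1, -1.14, and Cdh5, -1.29), and Vwf, at -1.20, was not called (edgeR adjusted p = 0.0713) and fell with the pools as a block (0.00545). Kdr rose, from a mean of 6.06 to 53.1 CPM, and it carries the sums of the 4, which were 50.1 to 94.9 CPM in CD34hi and 33.3 to 55.2 CPM in CD34lo.

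Both pericyte markers fell, with sums of 1.59 to 2.46 CPM in CD34hi and 7.36 to 11.5 CPM in CD34lo. Of 5 macrophage markers 1, Fcgr2b, fell and 2 were too low to test, with sums of 2.57 to 3.20 and 27.3 to 48.6 CPM. Fcgr2b carries the CD34lo sums, at 43.4, 23.6 and 40.9 CPM in pools 1, 2 and 3. In CD34hi it was at 1.10, 0.193 and 0.265 CPM. Cd68 (-0.71, edgeR adjusted p = 0.0563) and Fcgr1 were not called. Of 5 leukocyte markers 2 fell, 1 rose and 2, among them Ptprc, were too low to test, with sums of 14.7 to 17.8 and 4.66 to 8.45 CPM. Of 3 erythroid markers 2 fell, Hba-a1 and Hbb-bs, with sums of 1.08 to 1.32 and 2.38 to 3.19 CPM, and with the pools as a block Hbb-bs was not called (edgeR adjusted p = 0.0658). Of 3 Schwann cell markers 1 fell and 1 rose (37.3 to 47.7 and 13.6 to 16.5 CPM), both keratinocyte markers rose (14.3 to 19.9 and 3.60 to 7.12 CPM), and of 4 muscle markers 1 fell (1.27 to 1.57 and 3.50 to 3.88 CPM). Cd163, Cd52, Myf5 and Myog were at 0 in some libraries, and none of the listed markers was at 0 in all 6. The part of these cells in the levels of the cell cycle genes was not tested.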

How the data were processed

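Polyadenylated RNA of sorted fibroblasts was sequenced by the authors from TruSeq RNA v2 libraries, whose kit does not mark strand. The authors aligned reads to GRCm38/mm10 and deposited a table of raw counts per gene, with Rsubread 2.2.6 named in their processing notes; whether counting used strand was not given in the sources used here. Symbols were found for 25275 of 27179 genes, and 1904 had none; these were kept, unlike in the study's methods.

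Here the counts were filtered with filterByExpr by population (15219 genes), scaled by TMM (factors 0.967 to 1.04) and tested with edgeR 4.0.16 (quasi-likelihood F test, Benjamini-Hochberg adjustment over all genes tested) in R 4.3.3, without a pool term, since the study's methods name none. CPM are TMM-scaled, and log2 CPM use a prior count of 2. Alternatives were limma-voom (limma 3.58.1), DESeq2 1.42.0, other scalings, no filter, the pools as a block, and each library left out, 13 in all. The scripts were tested on simulated data.

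Replicate numbers are mouse pools, so they pair the samples; deviations from the group means correlated at 0.279, 0.0844 and 0.243 in pools 1, 2 and 3, and the biological coefficient of variation was 19.7%, or 14.9% with the block. No replicates agreed within sampling noise (the lowest chi-square per degree of freedom was 23.4). A test of 3 against 3 libraries by permutation cannot go below 0.1.

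The members and the gene lists were chosen with earlier results of these data known. Beside the members, the text names up to 3 called genes in each direction from every further list, by size of change and with a mean of at least 1 CPM, and any gene of the regulator, G1 and CDK inhibitor lists. One gene that this rule picks is not reported here. Marker lists covered fibroblast, epithelial, endothelial, pericyte, Schwann, macrophage, leukocyte, keratinocyte, muscle and erythroid genes.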

Additional observations from a re-analysis of the deposited data

How the results depend on the processing

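Of 819 comparisons of 63 single genes with an alternative, 715 kept direction and side of the threshold, 71 lost the call, 16 gained it and 17 turned direction. The 17 concerned 7 members that were not called: Mcm2 was 0.017 with the pools as a block and -0.52 to 0.52 on leaving out single libraries, Gins2 0.0083 and -0.25 to 0.34, Mcm4 -0.013 with upper-quartile scaling and -0.022 to 0.11, Cdc6 -0.028 and -0.14 to 0.16, and with single libraries left out Mcm5 was -0.77 to 0.014, Ccna2 -0.12 to 0.65 and Tpx2 -0.79 to 0.056. The number of mitotic members called was 2 to 12 on leaving out single libraries. Of the other mitotic genes, 7 were called in the main test (18.7% of all genes lower and 16.9% higher). DESeq2 called 11 (20% and 18.2%), edgeR with the block 16 (20.9% and 19.6%) and limma-voom with the block 17 (21.9% and 20.3%). With single libraries left out 3 to 16 were called (13.6% to 18.0% of all genes lower and 11.8% to 15.9% higher). The cause of these differences was not tested. Among the members the block changed the call of Birc5 and no other in edgeR. Ccne1, E2f1, Pcna, Rrm2, Bub1b and Kif11 were called under all 13 alternatives. Among the limits, 17 of the 20 mitotic members averaged under 5 CPM, with SE of up to 0.66 on the log2 scale, so a missed threshold there does not show that a gene was level. Bulk libraries give no share of cycling cells.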
